A study of Mus musculus with 4 samples.

Results

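The 10 genes described here encode transcription factors that gonadal somatic cells are known for: *Nr5a1*, *Wt1*, *Gata4*, *Gata6*, *Pax8*, *Emx2*, *Lhx9*, *Nr0b1*, *Tcf21* and *Nr2f2*. They were taken by symbol from the 31053 genes of the count tables. The tables hold single-cell RNA counts from the proximal region of the mouse testis, where the rete testis (RT) meets the seminiferous tubules. There were 2 control and 2 *Sox17*-cKO libraries, all from C57BL/6 mice at P14, each made from the cells of 3 pups, so that the library is the replicate. The *Sox17*-cKO libraries carried SF1Cre and the homozygous *Sox17* flox allele. The genotype label of the control libraries is SF1Cre, whereas the study's methods describe the controls as littermates with floxed alleles and no Cre, and this difference could not be settled here. SF1Cre is driven by regulatory sequence of *Nr5a1*, itself among the 10 genes, so recombination is aimed at *Nr5a1*-expressing cells. During dissociation a supernatant rich in interstitial cells was discarded, which bears on how many Leydig and stromal cells remained.

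These factors act early and in a sequence. WT1, GATA4, LHX9 and EMX2 are needed in the coelomic epithelium for the gonad to form, and NR5A1 (also known as SF1) is switched on in the same cells. The supporting lineage keeps WT1, GATA4 and NR5A1 and becomes Sertoli cells, whereas steroidogenic Leydig cells keep NR5A1 and lose WT1. TCF21 and NR2F2 (COUP-TFII) belong to the interstitial mesenchyme from which Leydig and peritubular cells arise, and NR0B1 (DAX1) is a repressor that binds NR5A1. PAX8 marks the RT epithelium, which lies between Sertoli cells and the efferent ducts, and the last Sertoli cells before the RT form the Sertoli valve (SV).

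The files held 46001 barcodes, of which 22567 with 1000 to 4500 detected genes were retained, 5174 to 5652 in 3 of the libraries and 6135 in control 1. Library totals were 89969877 to 107203219 UMIs (unique molecular identifiers, each standing for 1 captured transcript), and the median cell held 5040 to 7872 UMIs. Cells were clustered with the 10 genes, 22 related regulators and *Sox17* withheld from the variable genes, and clusters were named from marker lists that contain none of them. Values below are UMIs of a gene per 1000000 UMIs (CPM) of the summed cells of a class in a library, and where 4 values are listed their order is control 1, control 2, *Sox17*-cKO 1 and *Sox17*-cKO 2. Each library pair shared 7 to 9 barcodes. Control 1 and *Sox17*-cKO 1 were processed with Cell Ranger 6.0.2 and the other libraries with 6.1.2, so software version and replicate number cannot be told apart.

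The classes compared were 229 rete-like, 5367 Sertoli-like, 348 SV Sertoli-like, 228 Leydig-like and 7169 stromal-like cells, with 7173 germ-like cells set beside them as another lineage of the same libraries. The germ-like values are no common level of background RNA: those of *Nr2f2* and *Pax8* were above the Sertoli-like values in every library. Control 1 gave only 12 Leydig-like cells, and *Sox17*-cKO 1 only 33 rete-like cells. Clusters had been named from the marker lists, so a list that is high in its own class follows from the naming and is no check of the labels. The summed rete list holds keratins and *Cdh1* as well as *Cldn7*, *Rmst* and *1500015O10Rik*. It reached 4102 to 4923 CPM in rete-like cells and at most 122 CPM in the other 4 classes, with 6 of 8 markers highest in rete-like cells in every library. The Leydig list of steroidogenic genes reached 4192 to 6729 CPM in Leydig-like cells, with 6 of 6 markers highest there. The SV list was 1470 to 2029 CPM in SV Sertoli-like cells and 168 to 257 CPM in Sertoli-like cells, but only 3 of its 8 markers were highest there, and the genes leading this cluster included the stress-responsive *Cyr61*, *Atf3* and *Cebpd*. Rete-like cells also held 924 to 1872 CPM of the Sertoli list. This was not particular to them: Leydig-like cells held 872 to 1569 CPM of it, stromal-like cells 783 to 1367 CPM and germ-like cells 305 to 1212 CPM. The endothelial list in rete-like cells read 533, 503, 381 and 302 CPM, lower in both *Sox17*-cKO libraries. The part of such RNA in the results, those of *Sox17* included, was not tested. *Sox17*, the deleted gene, read 356, 309.8, 45.5 and 34.6 CPM in rete-like cells. It was lower in both *Sox17*-cKO libraries, with a log2 fold change of -3.12 ± 0.337 (SE) and an adjusted p of 0.0169 by the quasi-likelihood test of edgeR, Benjamini-Hochberg adjusted, which is the test used throughout.

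All 10 genes passed the filter on low counts in the fit of the 5 classes, where 10406 genes were tested within libraries. The log2 differences are of sums scaled by edgeR's TMM method, whereas the CPM are not scaled by it. A log2 difference can therefore depart from the ratio of the CPM. Between rete-like and Sertoli-like cells, 4 were higher and 1 lower in the rete-like cells, beside 57.7% of all genes tested that passed; the median log2 difference of the 10 genes was 1.03, and that of all genes 0.022. That median lies between *Gata6* (0.64) and *Lhx9* (1.43 ± 1.48), which had 1 UMI in rete-like and 5 in Sertoli-like cells, so it says little of the set. Between rete-like and stromal-like cells 6 were higher and 3 lower, beside 46.1% of all genes, with medians of 0.79 and -0.050. Against Leydig-like cells 5 were higher and 5 lower in rete-like cells (42.7% of all genes passed), and against SV Sertoli-like cells 6 were higher and 1 lower (44.4%). Sertoli-like cells differed from Leydig-like cells in 8 of the 10 genes, 3 higher and 5 lower (62.5%), and from stromal-like cells in 8, 4 higher and 4 lower (76%). SV Sertoli-like cells differed from Leydig-like cells in 7 genes, 3 higher and 4 lower (51.6%), and from stromal-like cells in 8, 4 higher and 4 lower (61.3%). Leydig-like and stromal-like cells differed in 8 genes, *Nr5a1* and *Gata4* higher and 6 lower in Leydig-like cells, with a median of -1.19 beside -0.13 over all genes (46.8%). The closest classes were Sertoli-like and SV Sertoli-like cells, which differed in 3 of the 10 genes beside 25.1% of all genes. With background shares this high, the counts of genes that passed say little about the set, and the account below turns on which gene was high where.

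**Figure D1:**
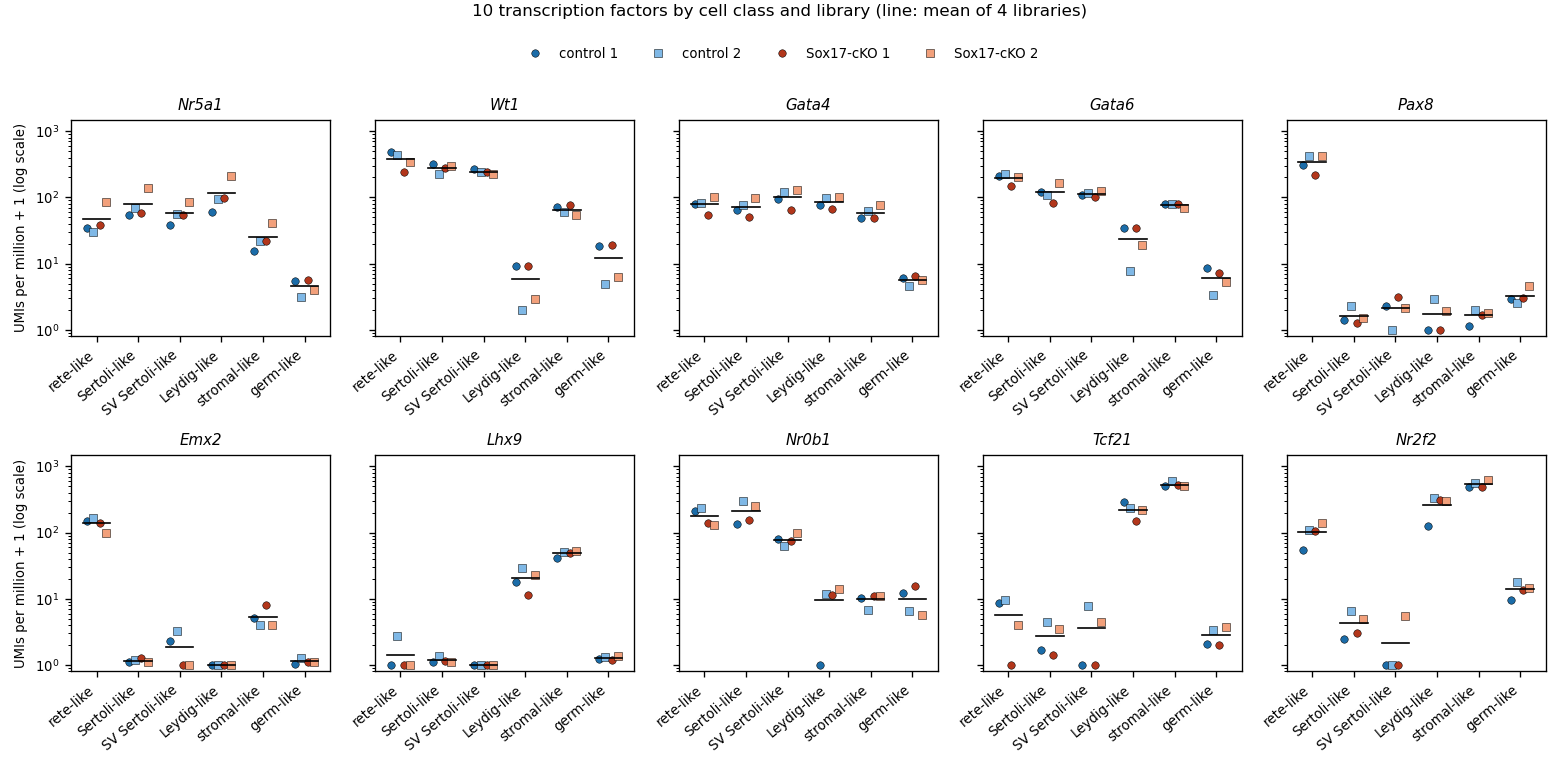
Transcription factors by cell class. Each panel shows 1 gene, with CPM + 1 on a log axis for the 5 classes and germ-like cells; points are the 4 libraries (blue control, red Sox17-cKO, circles replicate 1 and squares replicate 2) and the line is their mean. *Pax8* and *Emx2* stand far above the other classes in rete-like cells, *Lhx9*, *Tcf21* and *Nr2f2* are highest in stromal-like cells, and *Gata4* is nearly level over the 5 somatic classes.

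*Pax8*, a paired-box factor of the RT, kidney and other ducts (chr2:24420560-24475599, minus strand, GRCm38), was high in the rete-like cells alone among the 5 classes. It read 310.1, 425, 215 and 418 CPM there, from 659 UMIs, whereas the 5367 Sertoli-like cells gave 17 UMIs, the stromal-like cells 39, and the SV Sertoli-like and Leydig-like cells 3 each. The lowest rete-like value lay far above every value of the other classes, so the classes did not overlap. The log2 difference was 9.04 ± 0.217 (SE) against Sertoli-like cells (adjusted p = 7.1e-21) and 8.56 ± 0.202 against stromal-like cells (adjusted p = 6.5e-21). Germ-like cells gave 127 UMIs, at 1.55 to 3.52 CPM, more than Sertoli-like and stromal-like cells in every library.

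*Emx2*, a homeobox factor of the early gonad and the urogenital ducts (chr19:59458372-59465357, plus strand), shared this pattern but not its sharpness. It read 151, 164, 137 and 99.3 CPM in rete-like cells, and 4.20, 7.07 and 3.03 CPM in the stromal-like cells of control 1, *Sox17*-cKO 1 and *Sox17*-cKO 2, with 62 of 20681359 UMIs in control 2 (183 UMIs over the 4 libraries). The rete-like level was 4.74 ± 0.234 higher on the log2 scale (adjusted p = 9.1e-14). Sertoli-like cells gave 5 UMIs, SV Sertoli-like cells 2 and Leydig-like cells none in 2681543 UMIs, so that the pooled rete-like level of 133.6 CPM was at least 119-fold higher than the floor of 3 UMIs over the Leydig-like cells (1.12 CPM). Germ-like cells read 0.132 ± 0.0903 CPM (SD, n = 4), below the stromal-like cells in every library. The stromal-like UMIs were nearly all in 1 kind of stromal cell: 163 of the 183 UMIs came from the fibroblast-like cluster described below.

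The window from 250 bases before to 50 bases after the annotated start was available from RefSeq (GRCm38.p6) for 6 of the 10 genes, *Pax8*, *Emx2*, *Lhx9*, *Nr0b1*, *Tcf21* and *Nr2f2*, and 4 windows are shown for the genes that mark rete-like (*Pax8*, *Emx2*), Sertoli-like and rete-like (*Nr0b1*) and stromal-like (*Tcf21*) cells. They were searched on both strands for AGGTCA, the core of many nuclear receptor sites, AGATAA, bound by GATA factors, TAATTA, bound by homeodomain proteins, and CAGCTG, an E-box, none of which overlaps another. Capitals mark the matches, and each sequence reads 5′ to 3′ on the strand of its gene. The *Pax8* window is chr2:24475550-24475849 (minus strand), that of *Emx2* chr19:59458440-59458739 (plus strand), that of *Nr0b1* chrX:86191525-86191824 (plus strand) and that of *Tcf21* chr10:22820094-22820393 (minus strand).
Pax8: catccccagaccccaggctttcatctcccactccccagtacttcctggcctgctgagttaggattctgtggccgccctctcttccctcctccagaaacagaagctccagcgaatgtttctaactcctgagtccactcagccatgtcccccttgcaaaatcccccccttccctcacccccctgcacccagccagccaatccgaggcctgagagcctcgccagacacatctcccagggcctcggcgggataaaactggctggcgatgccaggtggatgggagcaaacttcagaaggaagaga
Emx2: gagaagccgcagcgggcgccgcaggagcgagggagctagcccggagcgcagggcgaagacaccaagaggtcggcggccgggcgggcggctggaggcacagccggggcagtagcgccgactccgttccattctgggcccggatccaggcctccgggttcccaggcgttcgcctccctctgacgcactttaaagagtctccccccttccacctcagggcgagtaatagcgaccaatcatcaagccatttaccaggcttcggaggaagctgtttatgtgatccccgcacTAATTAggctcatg
Nr0b1: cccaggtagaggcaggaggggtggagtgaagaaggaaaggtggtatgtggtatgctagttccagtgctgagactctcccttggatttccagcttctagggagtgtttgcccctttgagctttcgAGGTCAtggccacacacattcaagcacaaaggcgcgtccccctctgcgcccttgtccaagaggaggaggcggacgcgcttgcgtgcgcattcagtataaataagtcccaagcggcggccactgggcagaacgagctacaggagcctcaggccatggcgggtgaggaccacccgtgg
Tcf21: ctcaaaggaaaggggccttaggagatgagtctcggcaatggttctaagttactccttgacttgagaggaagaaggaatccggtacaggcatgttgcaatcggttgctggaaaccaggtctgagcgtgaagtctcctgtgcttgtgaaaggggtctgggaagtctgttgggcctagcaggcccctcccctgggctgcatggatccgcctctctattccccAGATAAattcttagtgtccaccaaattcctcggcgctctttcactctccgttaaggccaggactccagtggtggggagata

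*Emx2* held TAATTA once, at position 37 after the start, *Nr0b1* held AGGTCA once at -126, *Tcf21* held AGATAA once at -31, and the *Pax8*, *Lhx9* and *Nr2f2* windows held none of the 4 motifs. The *Emx2* and *Lhx9* windows lie wholly inside the GENCODE coordinates printed for these genes, so the RefSeq start used there is not the outer GENCODE start. Of the 32851 promoter windows of the same length, 5.29% held TAATTA, 16.3% AGGTCA, 11.2% AGATAA and 16.3% CAGCTG, so each match is a common one and is given only as a description.

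*Wt1* (chr2:105126529-105173616, plus strand), the zinc-finger factor required for Sertoli cell identity, was high in the 3 epithelial classes and almost missing from Leydig-like cells. It read 492, 434, 240.0 and 339.9 CPM in rete-like cells, 322, 228 and 273 CPM in Sertoli-like cells of the first 3 libraries (2405 of 8016020 UMIs in *Sox17*-cKO 2), and 267, 243, 237 and 221 CPM in SV Sertoli-like cells. These ranges overlapped, and neither neighbouring step passed the test: rete-like minus Sertoli-like was 0.32 ± 0.15 (adjusted p = 0.0698), and Sertoli-like minus SV Sertoli-like 0.27 ± 0.15 (adjusted p = 0.199). The wider step, rete-like minus SV Sertoli-like, passed (0.59 ± 0.16, adjusted p = 0.0042), a call that was lost without control 1 (0.50, adjusted p = 0.0531). The rete-like over Sertoli-like difference passed when only cells with under 10% mitochondrial UMIs were summed (0.64, adjusted p = 0.00419) and without *Sox17*-cKO 1 (adjusted p = 0.0193). Stromal-like cells held 70.5, 59.4, 75.3 and 53.1 CPM, below SV Sertoli-like cells by 1.62 ± 0.15 on the log2 scale (adjusted p = 9.4e-10). Leydig-like cells gave 8 UMIs in all, 4.40 ± 0.37 below stromal-like cells (adjusted p = 3.1e-10), which was no more than the 3.87 to 17.8 CPM of germ-like cells.

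*Gata6*, a zinc-finger factor that overlaps with GATA4 in the gonad, followed *Wt1* among the classes. It read 212, 224 and 149 CPM in rete-like cells of the first 3 libraries (133 of 664875 UMIs in *Sox17*-cKO 2) and 121, 109, 80.0 and 162 CPM in Sertoli-like cells, 0.64 ± 0.18 lower (adjusted p = 0.00378), although the ranges overlapped. SV Sertoli-like cells (101 to 125 CPM) were below rete-like cells by 0.75 ± 0.21 (adjusted p = 0.00481). They did not differ from Sertoli-like cells by the test (0.11 ± 0.18, adjusted p = 0.719) or from stromal-like cells, which held 67.4 to 78.8 CPM (0.27 ± 0.19, adjusted p = 0.209). The CPM ranges of SV Sertoli-like and stromal-like cells did not overlap, however. Sertoli-like cells were above stromal-like cells by 0.38 ± 0.15 (adjusted p = 0.0241), a call that was lost without control 1 (adjusted p = 0.0881), without *Sox17*-cKO 2 (adjusted p = 0.286), under the 10% mitochondrial limit (adjusted p = 0.188) and with DESeq2 (adjusted p = 0.139). Leydig-like cells were lowest, with 33.4, 6.84, 33.3 and 18.0 CPM, 2.18 ± 0.28 below stromal-like cells (adjusted p = 4.6e-07).

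*Nr0b1* (chrX:86191764-86195947, plus strand), the NR5A1 repressor, split the tubule cells that *Wt1* and *Gata6* did not. It read 132, 300.5, 157 and 250.1 CPM in Sertoli-like cells and 212, 232, 137 and 128 CPM in rete-like cells, and these classes overlapped (0.37 ± 0.22 on the log2 scale, adjusted p = 0.163). That step passed without control 1 (rete-like minus Sertoli-like -0.62, adjusted p = 0.0288) and when genes of low count were kept in (-0.60, adjusted p = 2.7e-04). SV Sertoli-like cells held 79.1, 61.8, 73.4 and 96.4 CPM, every library below every library of the rete-like and Sertoli-like cells, 1.04 ± 0.27 below rete-like (adjusted p = 0.00299) and 1.41 ± 0.23 below Sertoli-like cells (adjusted p = 4.6e-05). Stromal-like cells (5.85 to 9.93 CPM) and Leydig-like cells (0, 10.8, 10.4 and 13.2 CPM) did not differ by the test (0.26 ± 0.48, adjusted p = 0.696). Germ-like cells read 11.4, 5.51, 14.5 and 4.70 CPM, so that both classes were below them in control 1 and *Sox17*-cKO 1 and above them in control 2 and *Sox17*-cKO 2.

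*Nr5a1* (chr2:38692656-38714542, minus strand), the nuclear receptor that drives steroidogenic genes, was above the germ-like level of the same library in all 5 classes. It was highest in Leydig-like cells, at 58.4, 93.8, 95.8 and 212 CPM, and next in Sertoli-like cells, at 53.1, 68.5, 57.8 and 139 CPM. SV Sertoli-like cells followed with 37.0, 55.0, 52.5 and 83.9 CPM, rete-like cells with 34.0, 29.3, 37.2 and 85.7 CPM from 92 UMIs, and stromal-like cells with 14.4, 21.2, 20.7 and 40.6 CPM. *Sox17*-cKO 2 was the highest library in every class, and the libraries of neighbouring classes overlapped. With the library as a block the steps were Leydig-like over Sertoli-like by 0.73 ± 0.13 (adjusted p = 1.6e-05), Sertoli-like over SV Sertoli-like by 0.54 ± 0.14 (adjusted p = 0.00538) and rete-like over stromal-like by 0.55 ± 0.17 (adjusted p = 0.0108). SV Sertoli-like and rete-like cells did not differ by the test (0.37 ± 0.19, adjusted p = 0.170). Without *Sox17*-cKO 2 the Sertoli-like over SV Sertoli-like step (0.41, adjusted p = 0.147) and the rete-like over stromal-like step (0.37, adjusted p = 0.328) no longer passed, whereas rete-like minus SV Sertoli-like did (-0.73, adjusted p = 0.0470). The rete-like over stromal-like step was also lost over all 4 libraries when genes of low count were kept in (0.44, adjusted p = 0.117). Germ-like cells held 2.15 to 4.56 CPM.

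**Figure D2:**
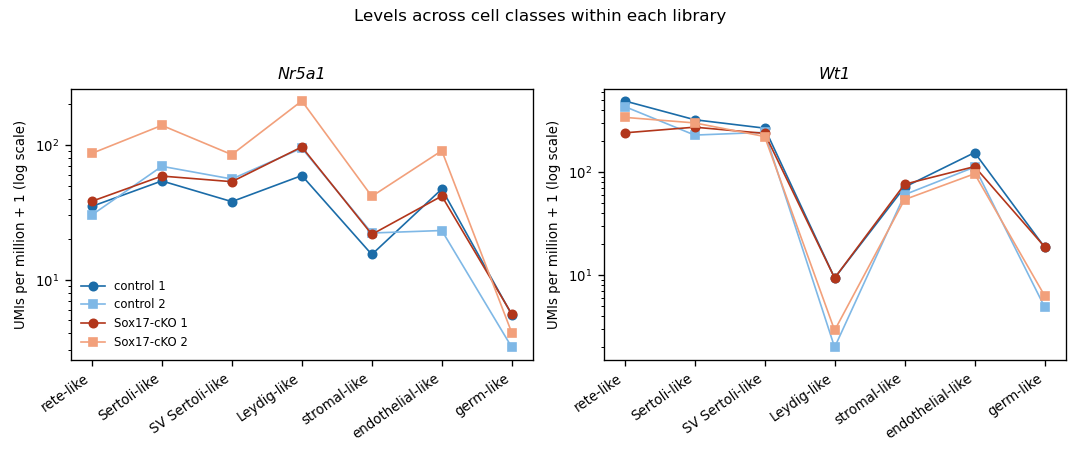
*Nr5a1* and *Wt1* in each library. The vertical axis is CPM + 1 on a log scale and each line joins 1 library over rete-like, Sertoli-like, SV Sertoli-like, Leydig-like, stromal-like, endothelial-like and germ-like cells. For *Nr5a1* the Sox17-cKO 2 line lies above the other 3 in the 5 somatic classes compared, and for *Wt1* the lines cross.

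*Gata4* (chr14:63198922-63271692, minus strand), the partner of NR5A1 on many gonadal promoters, varied least among the classes. Its values were 93.2, 121, 63.0 and 130.4 CPM in SV Sertoli-like, 75.0, 97.7, 66.7 and 100.2 CPM in Leydig-like, 79.4, 80.9, 53.8 and 99.3 CPM in rete-like, 64.3, 75.2, 49.5 and 96.6 CPM in Sertoli-like, and 47.7, 60.3, 47.7 and 75.5 CPM in stromal-like cells. All 5 ranges overlapped, and *Sox17*-cKO 2 was again the highest library in every class. SV Sertoli-like cells were above Sertoli-like cells (Sertoli-like minus SV Sertoli-like -0.46 ± 0.11, adjusted p = 0.00308), a call that was lost when genes of low count were kept in (-0.26, adjusted p = 0.315). Leydig-like cells were above rete-like cells by 0.42 ± 0.15 (adjusted p = 0.0256), a call that was lost under 6 alternatives, with adjusted p-values from 0.0655 to 0.197. In CPM, Leydig-like cells were below rete-like cells in control 1 and above them in the other libraries. SV Sertoli-like cells were above stromal-like cells by 0.52 ± 0.11 (adjusted p = 3.1e-04), and Leydig-like cells were also above stromal-like cells by the test. Rete-like, Sertoli-like and stromal-like cells did not differ from each other by the test: the log2 differences of rete-like minus Sertoli-like, rete-like minus stromal-like and Sertoli-like minus stromal-like cells were 0.0076 ± 0.13, 0.062 ± 0.13 and 0.054 ± 0.091. In CPM, without the TMM scaling, rete-like cells lay above Sertoli-like cells, and these above stromal-like cells, in every library. The lack of a difference by the test therefore depends on that scaling. Germ-like cells held 3.53 to 5.44 CPM, far below all 5 classes.

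*Tcf21* (chr10:22817281-22820174, minus strand), a basic helix-loop-helix factor of mesenchymal progenitors, was highest in stromal-like cells. It read 507, 593, 527 and 501 CPM in stromal-like cells and 292, 232, 150.0 and 215 CPM in Leydig-like cells, which did not overlap (1.45 ± 0.19, adjusted p = 5.6e-07). The rete-like cells gave 9 UMIs, the SV Sertoli-like cells 6 and the Sertoli-like cells 49, out of very unlike totals. Their means over the libraries were 4.8 CPM (range 0 to 8.61), 2.57 CPM and 1.75 CPM, where germ-like cells held 1.01 to 2.74 CPM.

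*Nr2f2* (chr7:70351944-70366735, minus strand), an orphan nuclear receptor of mesenchyme and veins, was highest in the same cells but reached further. It read 484, 553, 490.0 and 623 CPM in stromal-like cells, 125, 330.3, 308 and 296 CPM in Leydig-like cells, and 53.0, 110.2, 103 and 137 CPM in rete-like cells. Each of these steps passed: stromal-like over Leydig-like by 1.08 ± 0.17 (adjusted p = 1.3e-05), Leydig-like over rete-like by 1.72 ± 0.22 (adjusted p = 3.9e-07), and rete-like over Sertoli-like by 4.90 ± 0.27 (adjusted p = 6.5e-14). In rete-like cells *Nr2f2* stood at 10.9 to 22.0% of its stromal-like level, whereas *Tcf21* stood at 0 to 1.49% and the summed stromal marker list at 0.833 to 1.30% of theirs. Sertoli-like cells gave 93 *Nr2f2* UMIs and SV Sertoli-like cells 4.

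*Lhx9* (chr1:138825186-138848577, minus strand), a LIM homeobox factor of the early gonad, kept to the mesenchyme at P14. It read 39.9, 50.5, 47.8 and 51.7 CPM in stromal-like cells and 16.7, 28.3, 10.4 and 21.7 CPM in Leydig-like cells, again without overlap (1.29 ± 0.20, adjusted p = 1.3e-05). Rete-like cells gave 1 UMI, Sertoli-like cells 5, and SV Sertoli-like cells none in 2579043 UMIs, so that the pooled stromal-like level of 49.2 CPM was at least 42.3-fold higher than the floor of 3 UMIs over those cells (1.16 CPM). Leydig-like cells held 28.5 to 57.5% of the stromal-like level of *Tcf21*, 25.8 to 62.9% for *Nr2f2* and 21.8 to 56.1% for *Lhx9*, beside 5.16 to 15.3% for the stromal marker list. The part of stromal RNA in these Leydig-like values was not tested beyond this.

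The stromal-like cells were not uniform, and several of the 10 genes separated them. By their markers they comprised 2863 fibroblast-like, 2176 peritubular myoid-like, 1644 interstitial stromal-like and 296 pericyte-like cells. Another 190 were named by the general stromal list only, and *Lockd*, *Pclaf* and *Hist1h1b* led their cluster. Peritubular myoid-like cells, the contractile layer around the tubules, were tested against the other stromal-like cells: of 9 genes tested 3 were higher and 5 lower, beside 40.6% of all genes, and the median log2 difference was -0.38 (0.017 over all genes); *Pax8* did not pass the filter. *Wt1* read 122, 119.8, 119.7 and 120.1 CPM in fibroblast-like cells but 3.81 to 11.3 CPM in peritubular myoid-like and 9.87 to 26.0 CPM in interstitial stromal-like cells. The 4 fibroblast-like values were 120.3 ± 0.932 CPM (SD, n = 4), from 398, 1111, 386 and 758 UMIs. This SD is smaller than the counting error of such counts, so it does not measure how well libraries reproduce. Peritubular myoid-like minus other stromal-like cells gave -3.55 ± 0.15 on the log2 scale (adjusted p = 1.1e-10). *Gata6* split in the same way, with 132 to 159 CPM in fibroblast-like, 7.29 to 21.4 CPM in interstitial stromal-like and 2.32 to 4.90 CPM in peritubular myoid-like cells (-4.77 ± 0.15, adjusted p = 4.3e-12).

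*Emx2* joined them at a low level, with 5.82 to 12.1 CPM in fibroblast-like cells and 4 UMIs in all peritubular myoid-like cells (-4.08 ± 0.47, adjusted p = 4.7e-06). The summed rete list also differed, at 124 to 210.5 CPM in fibroblast-like and 3.92 to 9.71 CPM in peritubular myoid-like cells. Interstitial stromal-like cells held 4.94 to 15.3 CPM of that list, and its part in the *Wt1*, *Gata6* and *Emx2* values was not tested. The values of *Wt1* and *Gata6* in peritubular myoid-like cells were below those of the germ-like cells in the first 3 libraries and above them in *Sox17*-cKO 2 (7.47 against 5.29 CPM for *Wt1* and 4.65 against 4.21 CPM for *Gata6*). *Nr2f2* and *Tcf21* ran the other way. *Nr2f2* was highest in peritubular myoid-like cells, at 701 to 787 CPM beside 343 to 472 CPM in fibroblast-like cells (0.81 ± 0.063 above the other stromal-like cells, adjusted p = 8.4e-08). *Tcf21* reached 622 to 808 CPM there and 387 to 539 CPM in fibroblast-like cells (0.64 ± 0.068, adjusted p = 2.3e-06), and only 64.6 to 118 CPM in pericyte-like cells, whose *Nr2f2* stayed at 497 to 755 CPM. *Gata4* was slightly higher in peritubular myoid-like cells (0.38 ± 0.084, adjusted p = 0.00218), *Lhx9* lower (-0.38 ± 0.085, adjusted p = 0.00206) and *Nr0b1* lower (-0.80 ± 0.18, adjusted p = 0.00271); the last call was lost without integration of the libraries (adjusted p = 0.0671). *Lhx9* was highest in interstitial stromal-like cells, with 59.2 to 76.5 CPM, and *Nr5a1* did not differ by the test (-0.024 ± 0.11, adjusted p = 0.894).

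**Figure D3:**
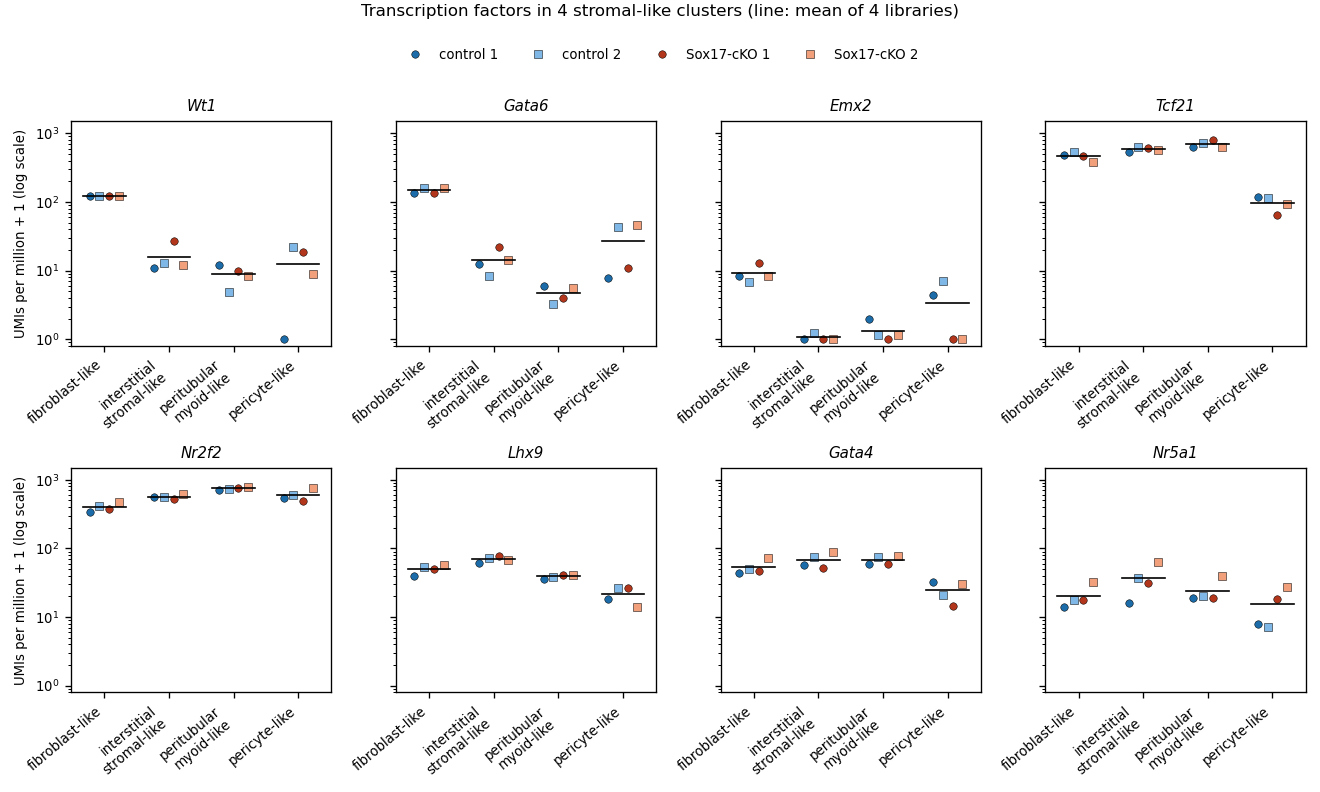
Transcription factors in the stromal clusters. Panels show 8 genes in fibroblast-like, interstitial stromal-like, peritubular myoid-like and pericyte-like cells as CPM + 1 on a log axis, with points for the 4 libraries and a line at their mean. *Wt1* and *Gata6* are highest in fibroblast-like cells, and *Nr2f2* is high in all 4 kinds.

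Within the Sertoli-like cells, 5 sub-clusters and the SV Sertoli-like cells differed in level as well as in depth and mitochondrial share. *Wt1* averaged 327, 122, 349, 104 and 452 CPM over the libraries in sub-clusters 0 to 4 and 242 CPM in SV Sertoli-like cells. The low values were in sub-clusters 1 and 3, whose median cells held 3151 and 2603 UMIs and 9.3% and 6.9% mitochondrial UMIs, and the highest was in sub-cluster 4, with 2725 UMIs and 31.1% mitochondrial UMIs. *Nr0b1* did not follow it, with 143, 327, 252, 194 and 82.4 CPM in sub-clusters 0 to 4 and 77.7 CPM in SV Sertoli-like cells. Sub-cluster 1, low in *Wt1*, held the most *Nr0b1*, and sub-cluster 4, highest in *Wt1*, held little. *Nr5a1* moved little, from 54.3 CPM in sub-cluster 4 to 91.4 CPM in sub-cluster 2, with *Sox17*-cKO 2 the highest library in each. Sub-clusters 2 and 0, the deepest, held the most *Gata6* (156 and 125 CPM), and SV Sertoli-like cells the most *Gata4* (102 CPM). These are descriptions with no test, and the part of depth and mitochondrial share in them was not tested.

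**Figure D4:**
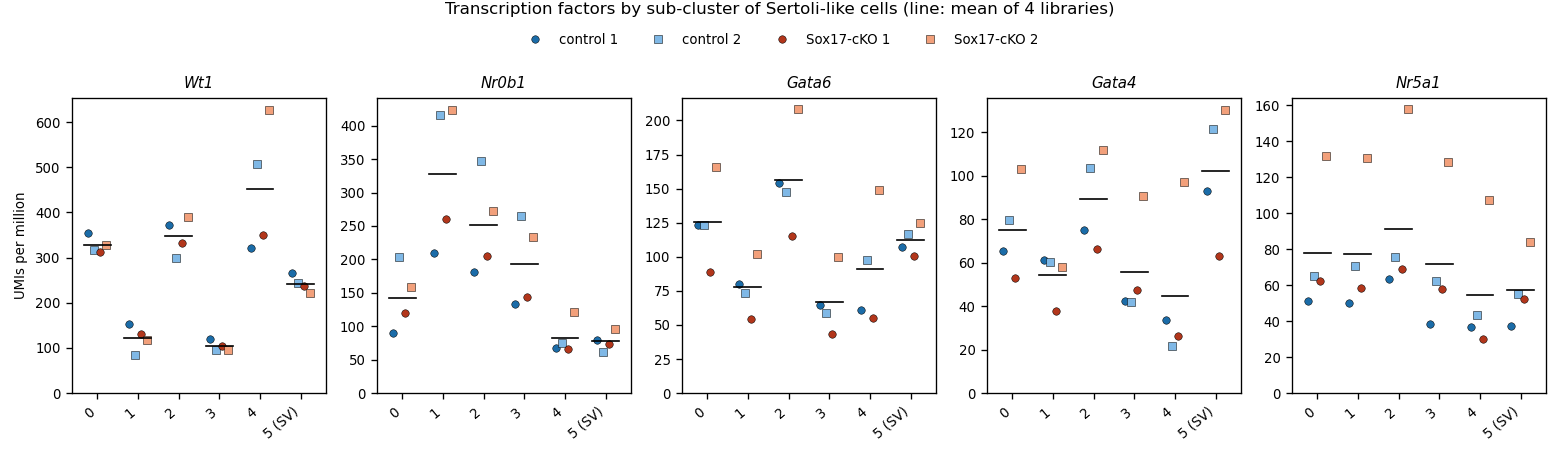
Transcription factors in the Sertoli sub-clusters. Panels show *Wt1*, *Nr0b1*, *Gata6*, *Gata4* and *Nr5a1* as CPM on a linear axis in sub-clusters 0 to 4 and SV Sertoli-like cells (5), with points for the 4 libraries and a line at their mean. *Wt1* is lowest in sub-clusters 1 and 3, and *Nr0b1* is lowest in sub-cluster 4 and SV Sertoli-like cells.

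Counted by cell, most rete-like cells carried the epithelial factors. Of 229 rete-like cells, 84.7% had a *Wt1* UMI, 83.4% *Pax8*, 67.7% *Gata6*, 60.3% *Nr0b1*, 54.6% *Emx2*, 45.9% *Nr2f2*, 45.0% *Gata4* and 31.9% *Nr5a1*, where the median cell held 7730 UMIs. The same shares in germ-like cells, with a median of 8071 UMIs, were 8.92%, 1.66%, 4.24%, 7.15%, 0.0976%, 8.55%, 3.75% and 2.98%, far below. Thinned to 2000 UMIs per cell, which left 221 rete-like cells and set 8 aside, *Pax8* was in 51.1%, *Wt1* in 48.4%, *Nr2f2* in 24.4% and *Emx2* in 20.4% of them, so depth set much of each share. Of the 191 cells with *Pax8*, 169 also had *Wt1*, 109 had *Emx2*, 95 had *Nr2f2* and 66 had *Nr5a1*. These shares were 88.5%, 57.1%, 49.7% and 34.6%, beside 65.8%, 42.1%, 26.3% and 18.4% in the rete-like cells with no *Pax8* UMI, whose median depth was lower (3893 against 7964 UMIs). Doublets were not called in 2 of the 4 libraries.

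Among 228 Leydig-like cells, with a median of 11551 UMIs, 66.7% had *Nr5a1* (25.0 to 74.2% between libraries), 86.8% *Nr2f2*, 67.1% *Tcf21* and 20.6% *Lhx9*. Thinned to 2000 UMIs per cell, the shares were 19.3%, 45.6%, 30.7% and 4.82%, so depth set much of them here too. Of the 152 with *Nr5a1*, 137 also had *Nr2f2* and 102 *Tcf21*. These are 90.1% and 67.1% of them, beside 80.3% and 67.1% of the Leydig-like cells with no *Nr5a1* UMI, so the *Tcf21* share was the same with and without *Nr5a1*. The median depth was lower in the cells with no *Nr5a1* UMI (10208 against 12295.5 UMIs). In germ-like cells the shares of *Tcf21* and *Lhx9* were 1.13% and 0.223%. Stromal-like cells had *Nr2f2* in 90.5% and *Tcf21* in 85.2%, and 5604 of the 7169 cells had both. Of the 2863 fibroblast-like cells, 1501 had *Wt1*, 1594 had *Gata6* and 924 had both, and 1295 of those with *Wt1* also had *Tcf21*. *Tcf21* was in 86.3% of the fibroblast-like cells with *Wt1* and in 81.7% of those without. *Wt1* and *Nr0b1* were in 60.9% and 53.6% of Sertoli-like cells, whose median depth was 4395 UMIs, and in 38.3% and 31.3% after thinning.

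Over the 20 sums of library and class, the genes of the set closest to each other were *Tcf21* and *Lhx9* (Pearson r = 0.966 of log2(CPM + 1)), *Wt1* and *Gata6* (0.958), and *Pax8* and *Emx2* (0.918). The 20 sums share 4 libraries and 5 classes, so r describes the likeness of class patterns only. Outside the set, the gene most like *Pax8* was *Plet1* (0.989), followed by *Fermt1* and the kidney cadherin *Cdh16*. The closest to *Emx2* was *Smim5* (0.984), to *Wt1* and *Gata6* the microtubule protein gene *Map1b* (0.964 and 0.944), and to *Nr0b1* *Rwdd4a* (0.973). Among the 3 genes most like *Lhx9* was *Zfp57* (0.983). *Tcf21* was closest to *Aoc3* (0.976) and *Nr2f2* to the TGF-beta coreceptor gene *Tgfbr3* (0.983). *Nr5a1* was closest to *Tmem147* (0.909), with the fatty acid oxidation genes *Hadhb* and *Echs1* next. The weakest likeness was that of *Gata4*, whose best matches *Btf3* and *Hypk* reached 0.866.

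Of 22 related gonadal regulators, 15 passed the filter in the class fit. Between rete-like and Sertoli-like cells 7 were higher and 5 lower in rete-like cells, beside 57.7% of all genes called, with *Nr2f1*, the close relative of *Nr2f2*, higher by 7.82 ± 0.40 (adjusted p = 1.3e-14; 111 UMIs against 6), *Maf* by 5.28 ± 0.29 (adjusted p = 3.7e-14) and *Nr4a1* by 5.36 ± 0.30 (adjusted p = 7.8e-14). Rete-like cells thus held both *Nr2f1* and *Nr2f2*. *Sox9*, the Sertoli determinant, overlapped between rete-like cells (322, 343, 319 and 537 CPM) and Sertoli-like cells (428, 295, 299 and 408 CPM), with a log2 difference of -0.011 ± 0.17 (adjusted p = 0.964), and its rete-like level was above that of stromal-like cells by 3.70 ± 0.19 (adjusted p = 1.3e-14). Between Sertoli-like and SV Sertoli-like cells 4 were higher and 7 lower in Sertoli-like cells (25.1% of all genes called), among the latter *Maf* (-3.69 ± 0.35, adjusted p = 1.2e-08). Between Leydig-like and stromal-like cells 2 were higher and 10 lower (46.8% of all genes called), with *Cited2* 1.55 ± 0.13 higher (adjusted p = 3.3e-10). In peritubular myoid-like cells 1 was higher and 8 lower of 18 tested (40.6% of all genes called), with *Nr4a1* 1.34 ± 0.084 higher (adjusted p = 7.4e-09) and the GATA4 cofactor gene *Zfpm2* at -1.49 ± 0.11 (adjusted p = 3.1e-08).

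Without a term for the replicate number, none of the 10 genes passed the threshold between *Sox17*-cKO and control libraries in any class. In rete-like cells 0 of 8 tested passed edgeR's test, beside 0.132% of all genes, with 3 at an unadjusted p under 0.05 (5.81% of all genes) and 0 by DESeq2; *Lhx9* and *Tcf21* did not pass the filter. The median of the 8 was -0.27, that of all genes 0.012. The 3 with a low unadjusted p were *Nr0b1*, *Wt1* and *Nr5a1*. The control and *Sox17*-cKO libraries did not overlap for these 3 nor for *Gata6* and *Emx2*, 5 of the 8, beside 33.4% of all genes tested in rete-like cells. *Nr0b1* read 212 and 232 CPM in control and 137 and 128 CPM in *Sox17*-cKO libraries (log2 fold change -0.78 ± 0.28, adjusted p = 0.709 by edgeR). The log2 ratio of *Sox17*-cKO to control was -0.63 within replicate 1 and -0.86 within replicate 2, so it kept its direction within each Cell Ranger version. With the replicate number, which is also the Cell Ranger version, as a block in the fit, *Nr0b1* passed (-0.80 ± 0.25, adjusted p = 0.0356 by edgeR). No other of the 10 genes did in any class. The genes called among all 6811 tested in rete-like cells went from 9 to 264. That fit leaves only 1 residual degree of freedom per gene.

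*Wt1* in rete-like cells read 492 and 434 CPM in control and 240.0 and 339.9 CPM in *Sox17*-cKO libraries (-0.68 ± 0.30, adjusted p = 0.858 by edgeR), with ratios of -1.03 and -0.35 within the replicate numbers. *Nr5a1* was 34.0 and 29.3 CPM in control and 37.2 and 85.7 CPM in *Sox17*-cKO libraries (1.06 ± 0.46, adjusted p = 0.857 by edgeR), with ratios of 0.13 and 1.55. Nearly all of the difference was in *Sox17*-cKO 2. The other 5 lay closer to no difference, with *Emx2* at -0.48 ± 0.31, *Gata6* at -0.33 ± 0.29, *Pax8* at -0.22 ± 0.36, *Gata4* at -0.019 ± 0.37 and *Nr2f2* at 0.49 ± 0.38, all with an adjusted p of 0.998 by edgeR. The standard errors leave room for differences of the size seen in *Nr0b1*, so a p that missed the threshold does not show that these genes were equal between the genotypes.

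**Figure D5:**
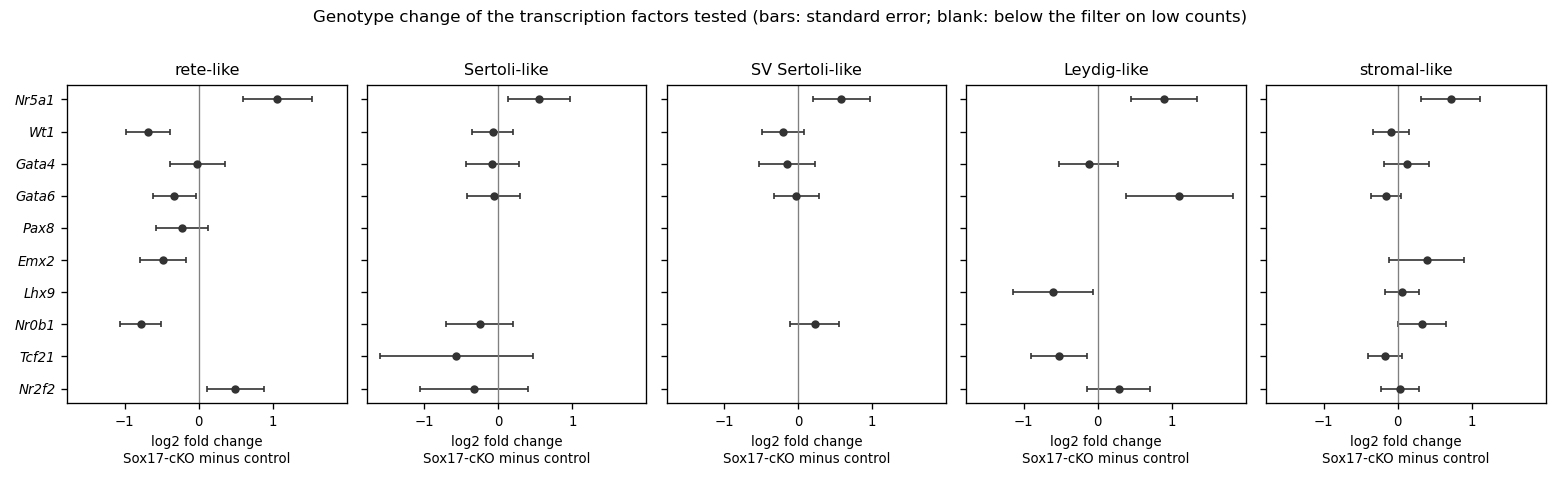
Change with *Sox17* loss. Points are log2 fold changes of Sox17-cKO over control with SE for the genes tested in each of the 5 classes. *Nr5a1* lies above 0 in all 5 classes, *Nr0b1* and *Wt1* lie lowest in rete-like cells, and no point passed the adjusted threshold in this fit, which has no replicate block.

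In Sertoli-like cells 0 of 7 genes passed, in SV Sertoli-like cells 0 of 5, in Leydig-like cells 0 of 6 and in stromal-like cells 0 of 9, beside 0% of all genes in each of these 4 classes; edgeR gave 0 at an unadjusted p under 0.05 (0.974%, 1.45%, 1.03% and 0.423% of all genes), and DESeq2 also called 0. *Pax8* and *Emx2* were not testable in Sertoli-like, SV Sertoli-like or Leydig-like cells, where they had too few UMIs. The fitted *Nr5a1* level was higher in the *Sox17*-cKO libraries in all 5 classes, by 1.06, 0.55, 0.58, 0.89 and 0.72 on the log2 scale in rete-like, Sertoli-like, SV Sertoli-like, Leydig-like and stromal-like cells, and none passed. Control and *Sox17*-cKO libraries overlapped in Sertoli-like, SV Sertoli-like and stromal-like cells, where *Sox17*-cKO 1 lay below control 2. Against the mean of the other 3 libraries *Sox17*-cKO 2 was 2.56, 2.32, 1.74, 2.56 and 2.16 times as high in these classes, and the log2 ratios of *Sox17*-cKO to control were 0.13, 0.12, 0.50, 0.72 and 0.52 within replicate 1 and 1.55, 1.02, 0.61, 1.17 and 0.94 within replicate 2. The replicate 1 ratio was close to 0 in rete-like and Sertoli-like cells, and near that of replicate 2 in SV Sertoli-like cells. The difference in the genotype change between rete-like and Sertoli-like cells was tested directly, and 0 of 9 genes passed edgeR's test beside 0.48% of all genes, with 2 at an unadjusted p under 0.05 (*Wt1* -0.68 ± 0.30, adjusted p = 0.649, and *Nr0b1* -0.67 ± 0.32, adjusted p = 0.757; 6.14% of all genes) and 0 by DESeq2. Of the 22 related regulators 0 passed edgeR's test in any class or in this comparison, and 0 passed with DESeq2; at an unadjusted p under 0.05 were 0 in Sertoli-like cells, 1 in each of the SV Sertoli-like, Leydig-like and stromal-like cells and, of 15 tested, in the comparison of changes (6.14% of all genes), and 2 of the 9 tested in rete-like cells (5.81% of all genes), among them *Nr2f1* (-1.09 ± 0.40, adjusted p = 0.712).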

How the data were processed

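Single-cell RNA was measured in 2 control and 2 *Sox17*-cKO libraries, grouped by their labels. The authors captured cells with a 10x Genomics 3′ kit (v3 in the labels, v3.1 in the methods) and aligned and counted with Cell Ranger (mm10). What they deposited are raw UMI counts per gene and barcode, limited to the barcodes that Cell Ranger called as cells. Cells with 1000 to 4500 detected genes were retained, as in the study's methods. The mitochondrial limit of the methods, 1%, would have left 212 cells and was dropped, a choice made after the counts were seen.

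Seurat 5.3.0 (R 4.3.3) served to normalise the counts, integrate the libraries and find clusters from 2000 variable genes and 20 principal components; a resolution of 0.4 gave 21 clusters. A cluster took the name of the list whose markers were on average highest against the other cells, with at least 3 markers higher. The Sertoli-like cells were clustered again; the sub-cluster highest in the SV list was called SV Sertoli-like, and sub-clusters of 249 and 223 cells led by germ-cell markers were left out. Scrublet in Scanpy 1.11.5 called 0 doublets in control 1 and *Sox17*-cKO 1, so it did not work there, and 208 and 330 barcodes in the other libraries; doublets were kept in the main sums.

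UMIs were summed per library and class. Genes were tested with edgeR 4.0.16 (TMM, filterByExpr, quasi-likelihood test, two-sided, Benjamini-Hochberg adjustment over all genes tested, threshold 0.05). The SE beside a log2 difference was derived from that test, as the absolute difference divided by the square root of the F statistic. The 20 sums of 5 classes were fitted together with the library as a block; genotypes were compared within each class over 2 against 2 libraries; the difference of genotype changes and the peritubular myoid-like comparison had the library as a block. P-values of the genotype comparisons within a class measure the spread between libraries. Where the library is a block, they measure how far class differences spread from library to library. Intervals and floors of 3 UMIs cover counting error only. The scripts were tested on simulated counts. DESeq2 1.42.0, no filter on low counts, each library left out, a 10% mitochondrial limit, removal of Scrublet calls, a resolution of 0.8, no integration, the genes kept among the variable genes, a replicate block and, chosen after seeing the data, the germ-led sub-clusters kept were the alternatives.

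The genes named are all 10 of the set, *Sox17*, up to 4 of 22 related regulators per comparison with the smallest adjusted p (*Sox9* and *Nr2f1* are also named beyond this for their values, and some genes that meet the rule are not reported here), and for each of the 10 1 to 3 of the 3 genes with the highest Pearson correlation. The 10 genes, the marker lists and the regulators were chosen with earlier results of these data known. Coordinates are from GENCODE vM21 (GRCm38), in which all 10 identifiers were found. *Nr5a1*, *Wt1*, *Gata4* and *Gata6* had no promoter entry. Sequences are credited to RefSeq.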

Additional observations from a re-analysis of the deposited data

Results flagged for a closer look

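Of 37 sets of 4 libraries with enough UMIs, 4 had a highest or lowest library whose gap to the nearest other took a larger part of the whole range than Dixon's critical value allows, where chance gives about 5% of sets. *Nr5a1* in rete-like cells was highest in *Sox17*-cKO 2, at 85.7 CPM beside 29.3 to 37.2 CPM. *Gata6* in stromal-like cells was lowest in the same library, at 67.4 CPM beside 77.2 to 78.8 CPM. *Nr0b1* in stromal-like cells was lowest in control 2, at 5.85 CPM beside 9.45 to 9.93 CPM. *Nr2f2* in Leydig-like cells was lowest in control 1, at 125 CPM beside 296 to 330.3 CPM, where that library had 12 Leydig-like cells. These sets mix both genotypes, so a genotype difference would enter the range.

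For *Nr0b1* every *Sox17*-cKO library lay below every control library in rete-like cells (log2 fold change -0.78) and above every control library in stromal-like cells (0.33), where the libraries of 33.4% and 18.3% of all genes tested in these classes did not overlap. Neither passed the test without a replicate block, and the difference between these classes was not tested. Within replicate 1 the stromal-like log2 ratio was 0.072, so that this side rests on the low value of control 2.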

How the results depend on the processing

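The number of the 10 genes called in each of the 17 comparisons stayed within 1.5 times its value in 197 of 198 recomputations. The exception was the genotype comparison in rete-like cells, where the replicate block gave 1 gene in place of 0: *Nr0b1*, at -0.80 with an adjusted p of 0.0356 by edgeR. The labels share the number 2 between genotypes and say nothing of litters or days, but over the 5 classes the deviations of same-numbered libraries from their group means correlated at 0.402 to 0.644, and the block raised the genes called in rete-like cells from 9 to 264. That count was 21 with DESeq2, 100 with no filter on low counts and 92 without *Sox17*-cKO 1. The replicate block changed no other call of the 10 genes.

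Of 1069 recomputed log2 differences over 94 results, 1033 kept their direction and their side of the threshold, 22 lost and 9 gained the call, and 5 turned, all 5 in rete-like genotype differences that did not pass. *Gata4* there was 0.033 under the 10% mitochondrial limit, 0.012 with the replicate block, and from -0.60 to 0.27 when each library was left out. *Pax8* was from -0.81 to 0.14 when each library was left out. *Gata4* in Sertoli-like minus Leydig-like cells also lost its call under 3 alternatives (adjusted p from 0.0632 to 0.175), *Gata4* in rete-like minus SV Sertoli-like cells under 3 (0.0547 to 0.0684) and *Wt1* in rete-like over SV Sertoli-like cells without control 1 (0.0531). *Wt1* in rete-like over Sertoli-like cells passed with the germ-led sub-clusters kept (adjusted p = 0.0440), *Wt1* in Sertoli-like over SV Sertoli-like cells passed when low-count genes were kept (adjusted p = 0.00567), and *Tcf21* in Sertoli-like minus SV Sertoli-like cells passed without integration (-1.85, adjusted p = 0.0177, with few UMIs). The causes were not tested.

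Of 50 class levels, 4 moved by more than 1 SD under the 10% limit: *Wt1* to 212 CPM in Sertoli-like and 218 CPM in SV Sertoli-like cells, *Gata6* to 9.17 CPM in Leydig-like and *Emx2* to 0.428 CPM in Sertoli-like cells. Thinning lowered 20 of 50 shares of cells with a UMI by more than the spread between libraries. Depth limits most the rete-like cells, whose libraries summed to 241710 to 664875 UMIs, and the 119938 UMIs of Leydig-like cells in control 1.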

Other observations

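The 72 endothelial-like cells, whose summed endothelial list reached 5693 to 6569 CPM, held some members of the set at levels within or near those of the gonadal classes and others at few UMIs. *Nr2f2*, which veins express, read 139, 333, 551 and 460.2 CPM there. *Wt1* read 154, 111, 112 and 95.4 CPM from 58 UMIs, and *Nr5a1* 46.2, 22.2, 40.8 and 89.8 CPM from 27 UMIs, with *Sox17*-cKO 2 again the highest library. *Gata6* read 108, 27.8, 61.2 and 28.1 CPM. *Gata4* gave 4 UMIs (0, 11.1, 0 and 11.2 CPM, below all 5 gonadal classes), *Tcf21* 4, *Nr0b1* 3 and *Pax8* 1, and *Lhx9* and *Emx2* none. *Sox17*, which arterial endothelium expresses, read 508 and 344 CPM in the control and 102 and 101 CPM in the *Sox17*-cKO libraries, over only 8 to 26 cells each and with no test. The same cells held the stromal list at 4862, 977, 3928 and 1914 CPM, the pericyte list at 133 to 1246 CPM and the Sertoli list at 316 to 692 CPM, and their part in the *Nr2f2*, *Wt1* and *Nr5a1* values was not tested.

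The 17 mesothelial-like cells, the covering of the testis, had *Wt1* at 145 to 378 CPM and *Gata6* at 208 to 472 CPM, and no *Nr5a1* UMI, where the floor of 3 UMIs over these cells is 19.4 CPM. This class depends on the clustering. Without integration it held 63, 42, 28 and 55 cells in the 4 libraries, and *Slpi*, *Lockd*, *Hist1h1b* and *Pclaf* led its cluster. The last 3 also led the 190 cells named by the general stromal list only, a group that was empty without integration. Whether these are the same cells was not tested, so the larger class is no count of mesothelial-like cells alone. With the withheld genes kept among the variable genes, the mesothelial-like class held none.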
